A study of Mus musculus with 2 samples.

Results

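MicroRNA (miRNA) reads that carry 1 adenosine at their 3′ end which the genome does not encode were examined in late fetal mouse liver. Such a read was defined as a sequence with 0 genome matches and no annotation class that ends in A, and that becomes an annotated miRNA read when this A is removed. Of the 2344366 distinct sequences in the table, 2698 met this definition, of which 2174 were seen in wild type and 2045 in Ago2ADH. They carried 257169 wild type reads (3.38% of the library) and 257738 Ago2ADH reads (3.66%). The read that remains without the A is called the parent below, and reads of parents as such are called untailed.

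The liver samples came from B6/129 mice at embryonic stage E18.5, with 1 library from wild type animals and 1 from Ago2ADH animals, whose Argonaute 2 is catalytically inactive. Trizol RNA of 19 to 30 nt was cut from a polyacrylamide gel, joined to adapters, turned into an RT-PCR product and read on an Illumina GA2. The sources used here do not give the number of animals behind each library, any pooling, or the number of mutant allele copies. With 1 library per genotype no test of the genotype could be made, and every interval below is a 95% interval that covers counting error of PCR reads without molecular identifiers and nothing else.

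A miRNA is held by an Argonaute protein, its 5′ end in one pocket and its 3′ end in the PAZ domain, and the bases next to the 5′ end, the seed, pair with target mRNAs. Terminal nucleotidyltransferases can add single bases to the free 3′ end. GLD-2 (Tent2) adds A, and in liver it is known for adenylating miR-122, the dominant miRNA of hepatocytes, while Tut4 and Tut7 add U. Argonaute 2 is the mammalian Argonaute that cuts targets, and it also cuts the precursor of miR-451, an erythroid miRNA that Dicer does not process, after which the 3′ end is trimmed.

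The wild type library held 7599870 reads, of which 2808232 were annotated as miRNA, and the Ago2ADH library held 7046197, of which 2811227 were. Fragments of hepatocyte mRNAs were present from 9 of 9 marker genes, at 11377 reads per 1000000 reads (RPM) in wild type and 11973 in Ago2ADH. Erythroid fragments came from 7 of 7 genes, at 1791 and 1137 RPM. White blood cell markers (6 of 6 genes) gave 110 and 97.5 RPM, and endothelial markers (4 of 4 genes) gave 28.9 and 29.9 RPM. In such bulk RNA, fewer cells of a type and less RNA per cell cannot be told apart.

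The first set of sequences shows 1 seed family in which the share of tailed reads depended on where the parent ended. The RefSeq mature sequences (GRCm38.p6) carry the seed, bases 2 to 8, in capitals. The deposited reads below each one, in which T stands for U, have the seed and the added A in capitals.
miR-20a-5p mature: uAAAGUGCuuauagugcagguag
miR-20a-5p, 23-nt parent: tAAAGTGCttatagtgcaggtagA
miR-20a-5p, 22-nt parent: tAAAGTGCttatagtgcaggtaA
miR-17-5p mature: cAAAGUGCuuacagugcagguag
miR-17-5p, 23-nt parent: cAAAGTGCttacagtgcaggtagA
miR-17-5p, 22-nt parent: cAAAGTGCttacagtgcaggtaA
miR-93-5p mature: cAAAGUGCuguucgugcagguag
miR-93-5p, 23-nt parent: cAAAGTGCtgttcgtgcaggtagA
miR-93-5p, 22-nt parent: cAAAGTGCtgttcgtgcaggtaA
miR-20a-5p lies at chr14:115044183-115044205 and miR-17-5p at chr14:115043684-115043706, both on the plus strand in an exon of the lincRNA Mir17hg. miR-93-5p lies at chr5:138165574-138165596 on the minus strand, inside the gene Mcm7, where the annotation places an exon.

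The second set shows parents that differ by 1 base at the 3′ end and that contrasted widely in tailing. Capitals mark the seed and the added A as before.
miR-99a-5p mature: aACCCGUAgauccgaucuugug
miR-99a-5p, 22-nt parent: aACCCGTAgatccgatcttgtgA
miR-99a-5p, 21-nt parent: aACCCGTAgatccgatcttgtA
miR-22-3p mature: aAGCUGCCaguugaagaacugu
miR-22-3p, 22-nt parent: aAGCTGCCagttgaagaactgtA
miR-22-3p, 21-nt parent: aAGCTGCCagttgaagaactgA
miR-652-3p mature: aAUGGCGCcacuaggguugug
miR-652-3p, 21-nt parent: aATGGCGCcactagggttgtgA
miR-652-3p, 20-nt parent: aATGGCGCcactagggttgtA
miR-99a-5p lies at chr16:77598940-77598961 (plus strand, intron of Mir99ahg). miR-22-3p lies at chr11:75463772-75463793 (plus strand, exon of Mir22hg and of Tlcd2). miR-652-3p lies at chrX:142739060-142739080 (plus strand, intron of Tmem164).

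The third set shows let-7 members, which share the seed GAGGUAG and differ in a few internal bases, with the tailed read of the full-length parent that ends in UU.
let-7i-5p mature: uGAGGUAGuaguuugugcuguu
let-7i-5p, 22-nt parent: tGAGGTAGtagtttgtgctgttA
let-7g-5p mature: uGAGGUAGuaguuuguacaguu
let-7g-5p, 22-nt parent: tGAGGTAGtagtttgtacagttA
let-7a-5p mature: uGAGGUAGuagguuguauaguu
let-7a-5p, 22-nt parent: tGAGGTAGtaggttgtatagttA
let-7f-5p mature: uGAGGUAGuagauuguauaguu
let-7f-5p, 22-nt parent: tGAGGTAGtagattgtatagttA
let-7b-5p mature: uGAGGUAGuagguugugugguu
let-7b-5p, 22-nt parent: tGAGGTAGtaggttgtgtggttA
let-7i-5p, the member with the highest share of tailed reads, lies at chr10:122985698-122985719 on the minus strand, in an exon of the transcribed pseudogene D630033A02Rik. let-7g-5p lies at chr9:106178846-106178867 on the plus strand, in an intron of Wdr82.

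The fourth set shows 1 tailed read of miRNAs near both ends of the range and of miRNAs whose tailing or tailed level differed between the libraries by the size rule given below.
miR-665-3p mature: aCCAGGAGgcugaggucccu
miR-665-3p, 22-nt parent: aCCAGGAGgctgaggtcccttaA
miR-19b-3p mature: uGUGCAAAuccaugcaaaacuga
miR-19b-3p, 23-nt parent: tGTGCAAAtccatgcaaaactgaA
miR-500-3p, 22-nt parent: aATGCACCtgggcaagggttcaA
miR-362-5p, 23-nt parent: aATCCTTGgaacctaggtgtgaaA
miR-29b-3p mature: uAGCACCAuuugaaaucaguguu
miR-29b-3p, 23-nt parent: tAGCACCAtttgaaatcagtgttA
miR-142-3p, 23-nt parent: tGTAGTGTttcctactttatggaA
miR-665-3p lies at chr12:109586368-109586387 on the plus strand, outside other genes of that strand. miR-19b-3p is encoded at chr14:115044358-115044380 (exon of Mir17hg) and at chrX:52741991-52742013. miR-500-3p (chrX:7237695-7237716) and miR-362-5p (chrX:7242019-7242042) lie on the minus strand in introns of Clcn5.

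The share of an added A was computed as tailed reads over tailed plus untailed reads. Parents after which the hairpin itself continues with A were left out of the untailed reads, since an added A cannot be told from the genome there. The reads left out numbered 470079 (16.7%) for wild type and 284260 (10.1%) for Ago2ADH. Reads with another added base or with 2 added A entered neither the tailed nor the untailed reads. The share is thus not a fraction of all reads of a miRNA. In wild type, 137112 reads had an added U. Over all miRNAs, the share of an added A was 9.91% (9.87 to 9.95) in wild type and 9.26% (9.22 to 9.29) in Ago2ADH. Tailed reads came from 427 of 667 miRNA arms, the 5p or 3p strand of a named miRNA. They were unevenly spread: 245 sequences with 100 or more reads held 95.3% of the tailed reads in wild type and 95.2% in Ago2ADH, while 770 sequences were seen in 1 read.

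A was added far more often than C or G. Counted in the same way, an added C gave 0.374% for wild type and 0.382% for Ago2ADH. An added G gave 0.338% in both libraries. An added U gave 9.17% in wild type and 10.8% in Ago2ADH. On parents for which both bases can be read, there were 27.4 A-tailed reads per C-tailed read in wild type and 26.5 in Ago2ADH. Against G the ratio was 38.0 and 39.2. Against U it was 0.617 and 0.599, so that U was the more frequent base on these parents. The comparison with U covered only 64643 of the 257169 A-tailed reads in wild type and 70489 of 257738 in Ago2ADH. For miR-122-5p it covered 6858 of 159451 A-tailed reads in wild type. The values depended on miR-122. Without it the ratio of A to C was 15.3 in wild type and 15.8 in Ago2ADH. Against G it was then 17.9 and 20.3, and against U 0.578 and 0.567. The shares without miR-122 were 7.19% and 7.42% for an added A, and 11.6% and 14.1% for an added U.

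Within single miRNAs, A exceeded C and G in nearly all arms and U in a minority. On shared parents, A exceeded C in 137 of 143 arms in wild type and 136 in Ago2ADH, with medians of 5.82% for A and 0.337% for C in wild type. A exceeded G in 132 of 136 arms in wild type and 133 in Ago2ADH. A exceeded U in 37 of 124 arms in wild type and 38 in Ago2ADH, with medians of 6.01% for A and 8.06% for U in wild type. Across these 124 arms the A and U shares had a Spearman correlation of 0.704 in wild type and 0.679 in Ago2ADH, as a description only, since both shares have the same untailed reads and library. miR-652-3p was high for both bases, at 48.8% A and 81.1% U on shared parents in wild type. These shares came from 2978 A-tailed, 13395 U-tailed and 3127 untailed reads, and each leaves out the reads with the other base. In contrast, miR-101b-3p had 23.1% A against 7.06% U, and miR-194-5p had 13.5% A against 6.96% U. miR-24-3p had 10.4% A against 37.9% U.

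A tailed read also differs by 1 base from a genome-matching read that is 1 base longer, so the rate of single-base differences towards A was measured inside miRNA reads with 10000 or more counts. At positions 2 to 6 from the 3′ end it was 0.0640% in wild type and 0.0572% in Ago2ADH, against 8.41% and 8.27% at the last position. A read with A at the last position is the next shorter form with 1 added A. The values at the last position thus largely restate the tailed reads and are no separate measure. At that internal rate, 1586 tailed reads in wild type and 1409 in Ago2ADH would be accounted for, which is 0.617% and 0.547% of the tailed reads. The median over arms was 0.831% in wild type, and miR-451-5p had the highest value, 24.8%. For 604 sequences the parent itself ended in A, so that the tailed read has the same letters as the next shorter form with 2 added A. They held 9.22% of the tailed reads in wild type and 10.9% in Ago2ADH.

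miR-122-5p, the hepatocyte miRNA whose adenylation by GLD-2 is the known example of this modification, gave most of the tailed reads. It had 159451 tailed and 1075738 untailed reads in wild type, a share of 12.9% (12.85 to 12.97). In Ago2ADH it had 150347 tailed and 1186702 untailed reads, a share of 11.2% (11.19 to 11.30). The log2 odds ratio of Ago2ADH to wild type was -0.23 (-0.24 to -0.22), which is outside counting error and below the 2-fold limit. miR-122 made up 62.0% of all tailed reads in wild type and 58.3% in Ago2ADH, against 46.0% and 47.0% of the untailed reads.

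Within miR-122-5p, the added A followed mostly one 3′ end. The 22-nt form, which ends in G, carried 149996 of the tailed reads in wild type at a share of 17.6%, and 141984 in Ago2ADH at 14.96%. The form 1 base longer, which ends in U, had 226709 untailed reads in wild type and a share of only 1.37%, with 1.14% in Ago2ADH. The form 1 base shorter was at 3.33% and 2.91%. A rarer 24-nt form, which ends in G again, was at 28.02% (102 tailed reads) and 19.6% (72 tailed reads).

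The share of miR-122-5p varied less with the 5′ end. Forms that shared the 3′ end of the 22-nt form but began at 7 different positions, 16 to 22 nt long, had shares of 12.4% to 17.98% in wild type and 10.6% to 14.96% in Ago2ADH. All 7 were lower in Ago2ADH, 4 of them outside counting error. The 5 forms that ended 1 base later had shares of 0.390% to 2.33% in wild type and 0.618% to 1.14% in Ago2ADH. The ranges of these ends did not overlap in either library.

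Other miRNAs also varied with the 3′ end. In 77 arms, 2 or more 3′ ends had enough reads to be compared. The highest and lowest end differed at least 2-fold in 60 of them in wild type and at least 5-fold in 34. Both counts include miR-103-3p, miR-127-3p and miR-130a-3p, whose lowest share was 0. The median, which leaves out these arms, was 3.55-fold. The intervals of the highest and lowest end lay apart in 65 arms in wild type and in 62 arms in both libraries. The same end was highest in both libraries in 71 arms. The highest end had a last base of G in 26 arms, U in 30, A in 13 and C in 8. The lowest end had G in 13, U in 43, A in 8 and C in 13. Of the 446 parent forms used below, 95 ended in G and 222 in U. Whether the highest or lowest ends differ from this make-up was not tested.

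The members of the AAAGUGC seed family belong to the miR-17-92 cluster and its paralogs and are known for promoting growth. Their share varied with the 3′ end in the 3 arms that met the read minimum with all parents counted. The 22-nt parent of miR-20a-5p had 1643 tailed and 1566 untailed reads in wild type, a share of 51.2%, and 50.5% in Ago2ADH. Its 23-nt parent, 1 G longer, had 2583 tailed and 21145 untailed reads, a share of 10.9%, and 9.96% in Ago2ADH. For miR-17-5p the shares were 55.5% and 53.3% on the 22-nt parent against 12.1% and 12.2% on the 23-nt parent. For miR-93-5p they were 37.6% and 36.6% against 7.09% and 6.43%. In these 3 arms and both libraries the share was higher on the rarer, shorter parent, which ends in A, so that here the tailed read has the letters of the 21-nt form with 2 added A. miR-106b-5p, a member under the read minimum, had 22.2% and 17.5% on the 22-nt parent (238 untailed reads in wild type) against 9.71% and 12.5% on the 23-nt parent (93 untailed reads), so that its shorter parent was not the rarer one.

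The contrast was wider in the set of reads that end in G or U. In miR-99a-5p, the 22-nt parent that ends in G had a share of 32.0% in wild type and 29.2% in Ago2ADH, and the 21-nt parent that ends in U had 0.440% and 0.466%. In miR-652-3p, the 21-nt parent that ends in G had 2887 tailed reads and 1619 untailed reads in wild type, a share of 64.1%, with 61.2% in Ago2ADH. Its 20-nt parent that ends in U had 2.21% and 2.62%. In miR-22-3p the 22-nt parent that ends in U had 83461 untailed reads in wild type and shares of 0.947% and 0.952%. Its 21-nt parent that ends in G had 623 untailed reads and shares of 19.0% and 22.2%. Outside that set, miR-192-5p, a miRNA of liver and gut, ranged from 0.190% to 25.3% over its 3′ ends in wild type. In Ago2ADH it ranged from 0.380% to 25.9%. Its highest and lowest end both had A as the last base.

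The last base did not set the share by itself. Over 446 parent forms with 200 or more untailed reads in each library, the median share in wild type was 8.08% for the 75 forms that end in A and 8.11% for the 95 that end in G. It was 3.72% for the 54 that end in C and 3.07% for the 222 that end in U. The same order of A and G above U held in Ago2ADH, at 6.83%, 8.21% and 2.91%, while forms that end in C were at 5.38% there. Outside counting error, 12 of the forms that end in C were higher in Ago2ADH and 3 lower. Over all 446 forms, 24 were higher and 60 lower. The ranges overlapped widely, since forms ending in G reached from 0% to 64.1% and forms ending in U from 0% to 42.5% in wild type. In 32 forms the share was 20% or more in wild type, 14 of them ending in G, 11 in A and 6 in U, while 9 forms had no tailed read in either library.

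Length had no common pattern across measures. The pooled share without miR-122 was 11.03% in wild type and 11.4% in Ago2ADH for parents of 21 nt, 7.02% and 6.77% for 22 nt, 7.005% and 6.44% for 23 nt, and 4.99% and 5.75% for 24 nt. Over single forms with 200 or more reads, the medians in wild type were 5.67% for 21 nt and 5.54% for 22 nt. Over arms grouped by the length of their main parent, they were 6.10% and 7.09%, the reverse order. Set against the RefSeq mature 3′ end, parents that end there had 7.21% and 6.93%, and parents 1 base shorter had 10.3% and 10.8%. The values by mature end do not include miR-122, which gave most of the tailed reads. In miR-122-5p the 22-nt form described above had a higher share than the form 1 base shorter. Parents 3 bases longer had 21.3% and 21.2%, of which miR-101b-3p gave 2468 of 2703 tailed reads in wild type. Without that arm they had 9.84% and 8.66%.

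The arms differed widely among themselves and kept their order between the libraries. Arms with 500 or more untailed reads in each library and 20 or more tailed reads in both together numbered 171. Their shares ran from 0.639% to 47.5% in wild type, with a median of 6.30%, and from 0.150% to 47.6% in Ago2ADH, with a median of 6.04%. In wild type 55 arms were above 10% and 3 were under 1%. The shares of the 171 arms in both libraries had a Spearman correlation of 0.973, as a description over arms of different depth. The share did not follow depth (Spearman -0.034 with untailed reads in wild type). The 90 arms of the 5p strand had a median of 6.41% in wild type and 6.13% in Ago2ADH, and the 80 arms of the 3p strand had 6.21% and 5.65%.

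Among the arms with the highest shares, miR-652-3p had 2998 tailed and 3319 untailed reads in wild type (47.5%) and 3309 and 3639 in Ago2ADH (47.6%). miR-665-3p, encoded in the imprinted Dlk1-Dio3 region, was at 36.6% and 42.0%. miR-199a-3p, a miRNA of mesenchymal cells, was at 35.8% and 30.8%. Reads deposited under the name miR-805, which lay on no hairpin arm, were at 34.7% and 29.4%. miR-675-5p, which is cut from the H19 transcript (exon of H19, chr7:142577112-142577133, minus strand), was at 27.3% and 22.1%. let-7i-5p was at 26.2% and 20.2%, miR-134-5p at 24.9% and 24.3%, and miR-101b-3p at 23.2% and 22.2%. The place of 3 of these arms depends on the reads left out because A follows on the hairpin. In wild type 24.1% of miR-199a-3p reads, 38.6% of miR-665-3p reads and 36.4% of miR-101b-3p reads were readable, and with all their reads as untailed the shares were 11.8%, 18.2% and 9.89%. Of the 171 arms, 14 had under 50% of their reads readable, and 22 had a wild type share that moved by over 1.5 times in this way. miR-15b-5p, miR-223-3p, miR-103-3p, miR-142-3p and miR-144-3p are among the 22. Reads with an added U also lie outside these shares. The share of an added U in wild type was 80.7% for miR-652-3p, 58.3% for miR-675-5p and 41.4% for miR-665-3p, against 0.502% for miR-805.

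At the other end stood the miR-19 pair of the miR-17-92 cluster, which is transcribed together with miR-17 and miR-20a. miR-19a-3p had 6 tailed and 933 untailed reads in wild type (0.639%) and 15 and 1535 in Ago2ADH (0.968%). miR-19b-3p had 25 and 3180 in wild type (0.780%) and 29 and 4459 in Ago2ADH (0.646%). miR-450a-5p was at 1.09% and 1.16%, miR-125a-5p at 1.12% and 1.28%, miR-22-3p at 1.14% and 1.17%, miR-410-3p at 1.28% and 0.986%, and miR-15b-5p at 1.35% and 1.45%. In these 7 arms the difference between the libraries was within counting error.

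Arms with the same seed differed in their share. The 9 arms with the seed GAGGUAG ran from 4.59% for let-7f-5p to 26.2% for let-7i-5p in wild type, a 5.70-fold range, and from 4.50% to 20.2% in Ago2ADH. On the full-length 22-nt parents shown above, let-7i-5p was at 30.4% and 22.9%, let-7b-5p at 13.9% and 12.6%, let-7g-5p at 7.93% and 6.85%, let-7a-5p at 6.92% and 6.74%, and let-7f-5p at 5.09% and 5.01%. The 21-nt parents, 1 U shorter, were at 2.37% and 1.27% for let-7i-5p and at 0.834% and 1.36% for let-7a-5p. Only arms matched to a RefSeq mature sequence in the sources used here enter these seed groups. The 3 matched arms with AGCAGCA reached from 1.35% (miR-15b-5p) over miR-16-5p to 8.12% (miR-322-5p) in wild type. The 3 matched arms with ACAUUCA reached from 2.35% (miR-181a-5p) to 7.87% (miR-181b-5p). The 3 matched arms with AAAGUGC were closer, from 10.1% to 14.7%, as were 3 with GUAAACA, from 4.72% (miR-30a-5p) to 7.50% (miR-30c-5p). Family members outside these groups were miR-15a-5p (3.47%), miR-181c-5p (2.64%), miR-30b-5p (5.53%) and miR-30d-5p (4.80%).

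The comparison of the genotypes asked whether tailing differs when Argonaute 2 cannot cut. For all miRNAs together, the log2 odds ratio of an added A in Ago2ADH against wild type was -0.11 (-0.12 to -0.10). The direction of this pooled value depended on whether miR-122 and miR-451 were counted. Without miR-122 the shares were 7.19% and 7.42%, and the log2 odds ratio was 0.05 (0.04 to 0.06). Without miR-451, whose untailed reads were mostly in wild type, it was -0.16 (-0.17 to -0.15), and without both it was -0.05 (-0.06 to -0.04). If all miRNA reads were counted as untailed, including parents followed by A, the shares were 8.39% and 8.40%. The pooled share thus changed direction with the miRNAs and reads that entered it.

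Arm by arm, most shares were close. A change was called at an odds ratio of 2 or more, or 0.5 or less, with an interval that excludes 1. This called 1 arm higher in Ago2ADH (0.585% of the 171 arms tested) and 4 arms lower (2.34%), 5 in either direction (2.92%). The median log2 odds ratio was -0.08, with 109 arms below 0 and 62 above. Outside counting error, 34 arms were below 0, 11 were above and 126 lay within it. Besides miR-122-5p, arms below 0 outside counting error included let-7i-5p (-0.49), miR-210-3p (-0.50), miR-376b-3p (-0.18) and miR-93-5p (-0.17). Those above included miR-665-3p (0.33), miR-486-5p (0.23) and miR-126-3p (0.13). None of these 7 reached the 2-fold limit.

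The arm that rose was miR-299-5p, of the Dlk1-Dio3 region. It had 173 tailed and 2847 untailed reads in wild type (5.73%) and 273 tailed and 1835 untailed reads in Ago2ADH (12.95%), a log2 odds ratio of 1.29 (1.003 to 1.58). The rise was seen on both of its main parents, from 4.10% to 12.5% on the 22-nt form and from 9.46% to 15.1% on the 21-nt form. Tailed reads were more and untailed reads fewer in Ago2ADH. The opposite arm of the same hairpin, miR-299-3p, was lower in Ago2ADH, at 14.5% and 9.72%, with a log2 odds ratio of -0.65 (-0.91 to -0.39).

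Of the 4 arms that fell, 2 belong to erythroid miRNAs. miR-486-3p had 41 tailed and 1810 untailed reads in wild type (2.22%) and 66 tailed and 8913 untailed reads in Ago2ADH (0.735%), a log2 odds ratio of -1.62 (-2.18 to -1.06). The 22-nt form went from 3.83% to 0.721%, whereas the 21-nt form, its most abundant parent, had 1.01% (10 tailed reads) and 0.542% (30 tailed reads), a log2 odds ratio of -0.95 (-1.97 to 0.06), so that the call was lost on that parent alone. Its tailed reads did not decline in number, while its untailed reads had a log2 level ratio of 2.30 per miRNA total. Its partner strand miR-486-5p, the main erythroid product of the hairpin, had 18.2% and 20.7%. On the 21-nt form of miR-486-5p, which ends in A, 8.59% of wild type reads and 18.6% of Ago2ADH reads were tailed, against 26.5% and 26.03% on the 22-nt form, which ends in G. Fragments of the 7 erythroid marker mRNAs stood at 1791 RPM in wild type and 1137 RPM in Ago2ADH, and their part in these values was not tested.

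miR-451-5p, whose precursor is cut by Argonaute 2 itself, had few reads in Ago2ADH. It had 774 tailed and 94695 untailed readable reads in wild type (0.811%), and 4 tailed and 2663 untailed in Ago2ADH (0.150%), a log2 odds ratio of -2.28 (-3.61 to -0.94). This call rests on 4 tailed reads in Ago2ADH. Moreover, the main 23-nt form is followed by A on the hairpin and cannot be read, and in wild type only 29.0% of the miR-451-5p reads were readable. The forms that remained differed between the libraries. In Ago2ADH 1831 untailed reads were of the 20-nt form, which had 0 tailed reads there (a limit of 0.164% from 3 counts) and 4 of 1248 untailed in wild type (0.319%). On the 22-nt form the shares were 1.23% (163 tailed) in wild type and 1.60% (3 tailed) in Ago2ADH. Internal substitution rates would account for 24.8% of its tailed reads in wild type and 58.2% in Ago2ADH. miR-451-3p had 2 and 7 tailed reads.

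The other 2 arms that fell, miR-362-5p and miR-500-3p, come from neighbouring hairpins in Clcn5. miR-362-5p had 32 tailed and 646 untailed reads in wild type (4.72%) and 11 and 518 in Ago2ADH (2.08%), a log2 odds ratio of -1.18 (-2.16 to -0.20). Of its tailed reads, 28 in wild type and 5 in Ago2ADH lay on the 23-nt parent shown above. miR-500-3p had 45 and 678 in wild type (6.22%) and 23 and 704 in Ago2ADH (3.16%), a log2 odds ratio of -1.01 (-1.74 to -0.27). Its 22-nt parent went from 7.94% to 3.61%. Both calls rest on few tailed reads. The call of miR-362-5p was lost with parents of 20 to 24 nt, where too few reads remained for a call, and on its most abundant parent, which had 0 tailed reads in both libraries. That of miR-500-3p was lost with 1 added to each count (-0.99).

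The level of tailed reads, per 1000000 miRNA reads, was compared for the 165 arms with 100 or more tailed reads in both libraries together. It was called higher in Ago2ADH for 4 arms (2.42%) and lower for 1 (0.606%), 5 in either direction (3.03%). miR-29b-3p, a regulator of collagen genes, rose from 27.4 to 81.1, a log2 ratio of 1.56 (1.19 to 1.96), and its untailed reads had a log2 ratio of 1.504. miR-188-5p rose from 13.2 to 35.9 (log2 ratio 1.45, untailed 0.85). miR-671-5p rose from 12.8 to 29.9 (log2 ratio 1.22, untailed 1.07). miR-142-3p, a miRNA of blood cells, rose from 136 to 298 (log2 ratio 1.13, untailed 1.03), a call that was lost with median-of-ratios or TMM scaling. miR-451-5p fell from 276 to 1.42 (log2 ratio -7.60, untailed -5.15).

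In 3 of these 4 higher arms the share of an added A differed within counting error. It was 6.68% and 6.94% for miR-29b-3p, 9.35% and 9.93% for miR-142-3p, and 10.4% and 11.4% for miR-671-5p, which was itself under the minimum for a call on the share. In miR-188-5p, also under that minimum with 242 untailed reads in wild type, it was 13.3% and 18.8%, a log2 odds ratio of 0.59 (0.0026 to 1.17). Over the 165 arms the median log2 level ratio was 0.09 for tailed reads and 0.14 for untailed reads. Relative to scaling by miRNA totals, scaling to all reads shifted the log2 level ratios by 0.11, median-of-ratios by -0.14 and TMM by -0.14.

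The liver list (miR-122, miR-192, miR-194, miR-101b and others) had 4 arms of 16 with enough reads and a median share of 15.5% in wild type and 15.4% in Ago2ADH, against 6.30% and 6.04% over all 171 arms. With all miRNA reads as untailed these medians were 10.3% and 9.85%, against 5.63% and 5.57%. None was called, and miR-122-5p was the 1 arm outside counting error. To be set beside this and the following lists, 1 of all 171 arms was called higher (0.585%) and 4 lower (2.34%). Outside counting error, 34 of the 171 arms were below 0 and 11 above. Whether a list differs from these counts was not tested. miR-194-5p had 13.6% and 13.4%, and miR-192-5p had 17.3% and 17.3%. miR-122-3p, the minor strand, had 14 and 17 tailed reads (4.61% and 6.67%), too few for a call.

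The erythroid list had 10 arms with enough reads and medians of 3.73% and 3.56%. In it 2 arms were called lower (miR-451-5p and miR-486-3p), 4 were below 0 outside counting error and 1 was above. Over all 171 arms these counts were 4, 34 and 11. miR-16-5p was at 3.99% and 3.93%, with 3367 and 2990 tailed reads. miR-144-3p, cotranscribed with miR-451, had 124 tailed and 2851 untailed reads in wild type (4.17%) and 186 and 5659 in Ago2ADH (3.18%), a log2 odds ratio of -0.41 (-0.74 to -0.07). miR-144-5p had 0 tailed of 246 untailed reads in wild type and 0 of 186 in Ago2ADH, which allows shares of up to 1.22% and 1.61%. The erythroid mRNA fragments given above were lower in Ago2ADH, and their part in these values was not tested either.

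The white blood cell list had 4 arms with enough reads, medians of 2.47% and 2.20%, and none outside counting error. miR-223-3p, a granulocyte miRNA, had 1.83% and 1.85%, and miR-142-5p had 2.73% and 2.56%. The endothelial and stromal list had 6 arms, medians of 6.99% and 7.02%, 1 above and 1 below 0 outside counting error. miR-126-3p, the endothelial miRNA, had 2238 (7.86%) and 2942 (8.53%) tailed reads, and miR-145-5p had 3.72% and 3.07%.

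The Dlk1-Dio3 list, whose hairpins form a large imprinted cluster that is active in fetal tissue, had 43 of 94 arms with enough reads. Its medians were 7.64% and 7.41%, with 1 arm called higher, 3 arms above and 7 below 0 outside counting error. Over all 171 arms these counts were 1, 11 and 34. miR-376b-3p had 3147 and 3196 tailed reads (10.9% and 9.77%), miR-127-3p had 2431 and 2294 (7.48% and 7.23%), miR-431-5p had 2672 and 2829 (22.6% and 21.8%), and miR-541-5p had 1804 and 2089 (7.24% and 6.87%). The Sfmbt2 list, a cluster of rodent miRNAs, had 0 of 42 arms with enough reads, and in sum 139 tailed reads for wild type and 142 for Ago2ADH.

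The let-7 list had 10 arms, medians of 6.41% and 5.88%, and 3 arms below 0 outside counting error, which were let-7i-5p, let-7g-5p and let-7d-5p. The list of miR-17-92 and paralogs had 10 arms, medians of 6.68% and 6.82%, and 4 arms below. miR-20a-5p, its most tailed member, had 4348 (14.7%) and 5203 (14.0%) tailed reads, and miR-92a-3p had 4.83% and 4.22%. No arm of either list was called, and over all 171 arms 34 were below 0 outside counting error.

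Other families gave no call either. The miR-30 list had 6 arms, medians of 5.08% and 4.69%, and 1 below 0 outside counting error (miR-30e-5p, 5.36% and 4.47%). The miR-29 list had 2 arms, at 5.26% and 4.99% for miR-29a-3p and at the values above for miR-29b-3p. Of the list of miR-26, miR-103 and miR-107, 3 arms had medians of 7.88% and 7.45%, and miR-26b-5p was lower (11.6% and 10.3%). The list of miR-23, miR-24 and miR-27 had 5 arms, medians of 7.69% and 7.44%, and 1 above (miR-27a-3p, 6.10% and 7.44%). The list of miR-130, miR-301, miR-148 and miR-152 had 3 arms, medians of 4.47% and 4.87%, and 1 below (miR-130b-3p, 7.18% and 5.74%). The list of miR-10, miR-99 and miR-125 had 5 arms, medians of 5.09% and 4.78%, and 1 above. The miR-181 list had 4 arms, medians of 4.79% and 4.73%, and none outside counting error.

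Among the 12 arms with most untailed reads in wild type, shares ran from 0.811% (miR-451-5p) to 14.7% (miR-20a-5p). miR-21-5p had 41110 untailed reads in wild type and 70919 in Ago2ADH, with shares of 1.82% and 1.64%. miR-130a-3p had 29449 and 36652 untailed reads and shares of 2.55% and 2.32%, although its 21-nt parent that ends in A stood at 31.1% and 29.0%. miR-20a-5p, with 25150 and 32093 untailed reads, had 14.7% and 14.0%. miR-26a-5p, with 25557 and 29958, had 7.88% and 7.45%. let-7a-5p, with 27776 and 21240, had 5.84% and 6.02%. These 5 arms had the same order of shares in both libraries.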

How the data were processed

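Small RNA of fetal mouse liver was sequenced from 1 wild type and 1 Ago2ADH library. The authors deposited raw read counts per distinct sequence and library, with genome matches, a class and a name per sequence, per the file headers. How adapters were trimmed, which aligner and build were used and which annotation gave the classes is not given in the sources used here. There are 0 further columns of per-sample values. Reads of the miRNA class were placed by exact match on the 1174 hairpins of GENCODE M21, which held 99.8% of them in wild type and 99.9% in Ago2ADH. Summing by named arm merges copies at several loci, and 94.0% and 94.4% of the tailed reads have a parent with 1 genome match. Of 4257 sequences that equal a miRNA read plus A, 1559 match the genome and were not counted as tailed.

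Shares have exact Clopper-Pearson 95% intervals. Odds ratios have Woolf intervals with 0.5 added to each count. Level ratios per 1000000 miRNA reads have exact conditional binomial intervals. No p-value was computed, because there is 1 library per group. Software was Python 3.11.15, pandas 2.3.3, numpy 2.4.6, scipy 1.17.1, R 4.3.3 and, for TMM factors from the raw counts, edgeR 4.0.16.

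Arms named are the 12 with most untailed reads in wild type, the 8 highest and 8 lowest shares, up to 8 called in each direction, every arm of miR-122, miR-451, miR-144 and miR-486, and the 3 most abundant of each list. Forms, seed families and other arms were picked after their values were seen. The members and lists were chosen with earlier results of these data known. Alternatives were other denominators, parents, minimums, fold limits and scalings. Leaving out miR-122 and miR-451 together, and 20 tailed reads in each library, were added after the data had been seen.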

Additional observations from a re-analysis of the deposited data

Results flagged for a closer look

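Reads with 2 added A were not used in any comparison above, and they stood far above the 3 reads that a count of 0 allows. There were 30628 such reads in wild type and 30403 in Ago2ADH, or 11.9 and 11.8 per 100 reads with 1 added A. miR-122-5p had 8689 and 6617 of them, or 5.45 and 4.40 per 100. Without miR-122 the ratio was 22.5 and 22.2 per 100. In miR-433-3p reads with 2 added A outnumbered those with 1, at 168 and 174 per 100, as they did in miR-92a-3p, at 123 and 114 per 100. miR-210-3p had 85.0 and 89.6 per 100.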

How the results depend on the processing

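No paired analysis was possible because there is 1 library per group and the labels give no replicate numbers, and for the same reason no library could be left out. The pooled share in wild type and Ago2ADH, with the log2 odds ratio, was 8.39%, 8.40% and 0.0017 with all miRNA reads as untailed, 10.3%, 9.61% and -0.12 with parents of 1 genome match, and 10.3%, 9.43% and -0.14 with parents of 20 to 24 nt. It was 11.9%, 10.8% and -0.16 with the most abundant parent of each arm, 9.86% and 9.21% less the expected substitutions, and 22.1%, 21.5% and -0.0508 over distinct sequences. Leaving out miR-122 gave 7.19%, 7.42% and 0.0497, leaving out miR-451 gave 10.3% in wild type and -0.16, and leaving out both gave 7.67%, 7.44% and -0.0484.

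Arms called higher and lower in share were 2 and 2 with the most abundant parent, where miR-299-5p and miR-486-5p were higher and miR-335-5p and miR-494-3p lower. There miR-362-5p had 0 tailed reads in both libraries, so its log2 odds ratio of 0.29 reflects only the 0.5 added to each count. With a minimum of 200 untailed reads 2 arms were higher, with 2000 there were 0 and 1 (miR-451-5p), and with a fold limit of 3 there were 0 and 2. With 20 tailed reads in each library 2 were lower, miR-486-3p and miR-500-3p. With all miRNA reads as untailed, miR-451-5p lost its call, as did miR-362-5p with parents of 20 to 24 nt and miR-500-3p with 1 added to each count. Level calls were 10 and 3 with a minimum of 50 tailed reads, and 2 higher with 300. No arm had 500 distinct sequences, so no call was possible on that basis. For named arms, 751 values kept their call or stayed without one, 15 lost a call and 1 gained one. In 1 value, that of miR-362-5p, the sign changed with 0 tailed reads. Signs were compared only for the arms called in the main setting. An arm with too few reads under an alternative counted as not called. Few tailed reads, 4 for miR-451-5p and 11 for miR-362-5p in Ago2ADH, limit those calls.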
